A study of Mus musculus with 6 samples.

Results

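The EGR and NR4A transcription factors and 4 early response genes that accompany them were followed as 10 rows of the deposited count table, taken by symbol: Egr1, Egr2, Egr3, Nr4a1, Nr4a2, Nr4a3, Ier2, Dusp1, Zfp36 and Btg2. All 10 were present among its 53735 rows, and all 10 were among the 14145 rows that passed the filter on low counts. The table holds 6 mouse aorta libraries, 3 labelled Mymsl WT and 3 labelled Mymsl KO, where Mymsl is a long noncoding RNA gene. WT denotes mice with an intact Mymsl gene and KO mice in which it was knocked out, and the RNA came from purified smooth muscle cells of the aortic media. The library titles name only aortas. Markers of endothelium, fibroblasts, macrophages and adipocytes were present in every library, as given below, and the purity of the cells was not tested. The labels name no treatment. How the knockout was made, and the strain, sex and age of the animals, were not given in the sources used here. The labels also do not say whether a library came from 1 mouse, so p-values measure only the spread between these libraries, which may be technical.

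Early response genes are transcribed within minutes of a stimulus, from factors already present in the cell, and their messages are short-lived. Serum, growth factors, stretch, wounding and tissue handling raise them, mostly through MAP kinases, serum response factor with its ternary complex partners, and CREB. EGR proteins are zinc finger transcription factors, and in the vessel wall EGR1 is known as a responder to injury. NR4A proteins are orphan nuclear receptors whose activity follows their amount. Dusp1 encodes a phosphatase that switches MAP kinases off, Zfp36 encodes tristetraprolin, which destabilises AU-rich messages, Btg2 encodes an antiproliferative protein that promotes deadenylation and is a target of p53, and Ier2 encodes a small nuclear protein of the immediate early class. The comparison asks whether aortic levels of these transcripts depend on Mymsl.

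Total counts lay between 20048216 and 25521123 per library. The row named RP23-57D10.3, which earlier analysis of this table had singled out as lost in the knockout, had 273 to 378 counts in WT and 0 in every KO library. Smooth muscle markers were the largest of the marker sums, between 44555 and 58888 CPM for 10 genes (CPM, counts scaled to library size with the trimmed mean of M values, TMM). Mymsl itself, by that symbol, was not analysed here.

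The promoters of 7 of the 10 genes had an entry in the RefSeq promoter table (GRCm38.p6). Of the 5 shown, Nr4a1, Btg2, Dusp1 and Egr2 were lowest in KO replicate 2 and highest in KO replicate 3 among KO libraries, and Nr4a2, highest in KO replicate 1, is given for comparison. Nr4a3 and Zfp36 had the same order but are not shown, since 152 and 250 of the 250 bases before their start sites lie in GENCODE M21 exons. Each is given 5′ to 3′ and ends before the first base that GENCODE M21 places in an exon. Capitals mark the core of the cyclic AMP response element on either strand (TGACG or CGTCA), the full palindrome TGACGTCA, which contains both, and the CArG box, the binding motif of serum response factor.
Nr4a1, chr15:101266596-101266845, plus strand: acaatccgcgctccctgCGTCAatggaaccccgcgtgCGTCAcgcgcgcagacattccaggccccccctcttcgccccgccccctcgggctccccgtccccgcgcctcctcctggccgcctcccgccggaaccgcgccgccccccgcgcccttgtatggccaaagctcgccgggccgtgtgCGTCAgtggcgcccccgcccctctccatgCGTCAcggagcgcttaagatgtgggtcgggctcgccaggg
Btg2, chr1:134079156-134079405, minus strand: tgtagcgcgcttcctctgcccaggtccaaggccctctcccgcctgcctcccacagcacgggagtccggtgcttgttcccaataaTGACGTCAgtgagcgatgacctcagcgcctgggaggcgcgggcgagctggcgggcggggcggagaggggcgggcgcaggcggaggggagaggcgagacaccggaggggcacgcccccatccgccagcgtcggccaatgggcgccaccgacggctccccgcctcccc
Dusp1, chr17:26508520-26508722, minus strand: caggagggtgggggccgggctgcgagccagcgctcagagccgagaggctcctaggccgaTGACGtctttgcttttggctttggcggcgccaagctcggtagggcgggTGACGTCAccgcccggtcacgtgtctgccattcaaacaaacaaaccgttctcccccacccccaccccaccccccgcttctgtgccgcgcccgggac
Egr2, chr10:67537619-67537868, plus strand: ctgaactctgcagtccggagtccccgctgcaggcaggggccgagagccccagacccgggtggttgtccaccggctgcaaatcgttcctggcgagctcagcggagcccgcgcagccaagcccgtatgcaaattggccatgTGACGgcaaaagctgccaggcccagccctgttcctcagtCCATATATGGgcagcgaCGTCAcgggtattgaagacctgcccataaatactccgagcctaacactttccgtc
Nr4a2, chr2:57124004-57124253, minus strand: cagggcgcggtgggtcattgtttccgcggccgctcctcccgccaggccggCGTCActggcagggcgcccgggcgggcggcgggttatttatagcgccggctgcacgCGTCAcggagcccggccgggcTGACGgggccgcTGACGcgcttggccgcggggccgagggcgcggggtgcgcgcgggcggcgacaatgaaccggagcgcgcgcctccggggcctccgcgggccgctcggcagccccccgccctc
Within the 250 bases before a start site, searched on both strands, the core TGACG occurred in 6 of the 7 genes (all but Zfp36), and in 19.8% of the 27025 genes of the table. The full element TGACGTCA occurred in Btg2, 166 bases before the start, and in Dusp1, 143 bases before it, and in 1.77% of all genes. A CArG box occurred in Egr2 and Zfp36, and in 1.62% of all genes. In Zfp36 it lay 58 bases before the start, and in the Egr2 window printed above 72 bases before it. The EGR motif GCGNGGGCG occurred in Nr4a1, Nr4a2, Zfp36 and Btg2 (5.33% of all genes), and the NR4A motif AAAGGTCA in none of the 7 (1.55% of all genes). Egr2 has several start sites in the table, and a gene counts once if any of its windows holds the letters.

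The 10 genes spanned a wide range of abundance in WT aorta. Scaled per kilobase of exon (RPKM, exon lengths from GENCODE M21), Dusp1 was highest at 95.1 ± 12.6 (SD, n = 3), followed by Btg2 at 71.4 ± 18.0, and the ranges of their WT libraries overlapped. Nr4a1 (40.5 ± 8.09), Egr1 (32.6 ± 4.48) and Zfp36 (27.0 ± 4.80) followed, each overlapping its neighbour. Ier2 stood apart at 19.4 ± 1.33. A lower tier held Nr4a2 (2.32 ± 0.421), Nr4a3 (1.39 ± 0.771) and Egr3 (1.08 ± 0.385), whose neighbours overlapped, and Egr2 was lowest at 0.318 ± 0.110. Each family was carried by its first member: on this scale Egr1 made up 92.9% to 96.8% of the EGR level, and Nr4a1 83.6% to 93.9% of the NR4A level, over the 6 libraries. Both shares were lowest in KO replicate 2.

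**Figure D1:**
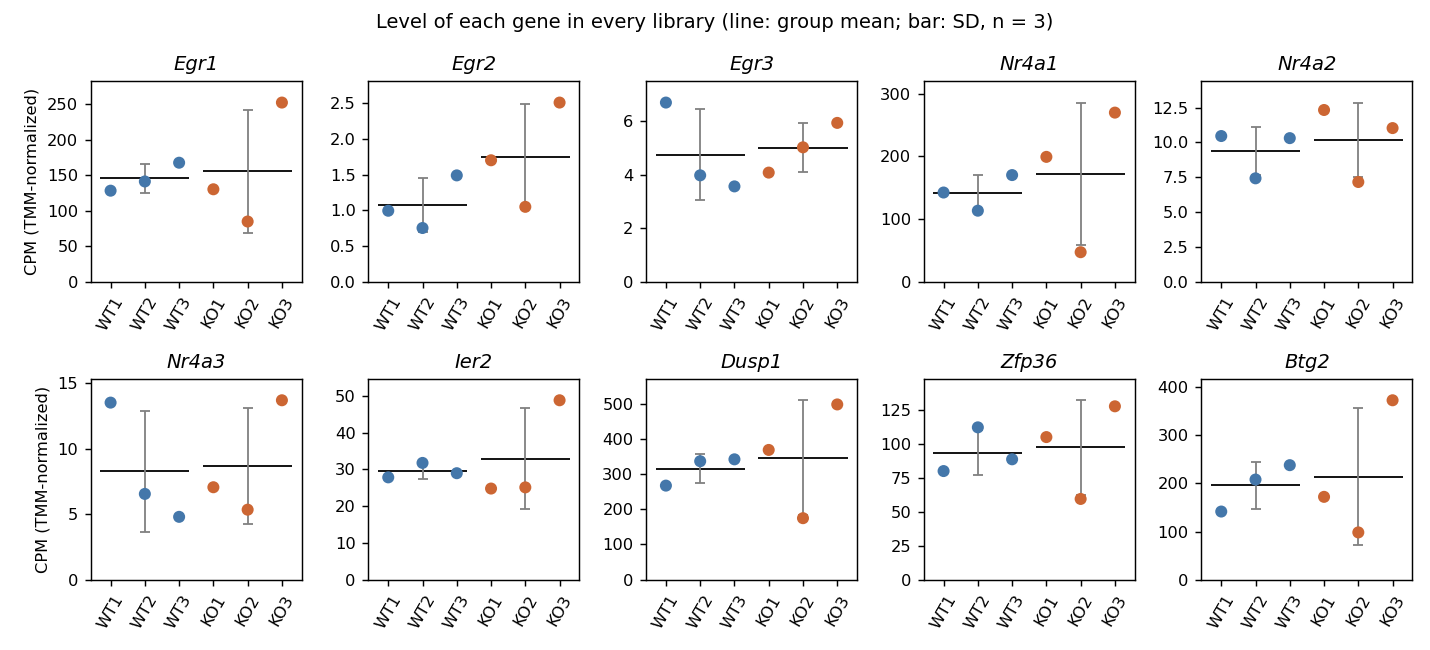
Level of each of the 10 genes in every library, in TMM-normalized CPM on axes that start at 0, with WT in blue and KO in orange; horizontal lines are group means and bars the SD over 3 libraries. KO replicate 2 is the lowest of the 6 libraries for 6 genes and KO replicate 3 the highest for 8.

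Egr1, the dominant EGR factor, had levels of 129, 142 and 168 CPM across WT replicates 1, 2 and 3, and of 131, 85.2 and 253 CPM across KO replicates 1, 2 and 3. KO replicate 2 lay below and KO replicate 3 above every WT library, so the groups overlapped. Egr2 rested on few reads, with 24, 19 and 36 reads in the WT libraries and 33, 22 and 58 in the KO libraries. Its level was 0.996, 0.755 and 1.49 CPM in WT and 1.70, 1.05 and 2.51 CPM in KO. For 58 counts the exact 95% Poisson interval ran from 1.90 to 3.24 CPM, and for the 36 counts of WT replicate 3 from 1.04 to 2.06 CPM. Such intervals cover counting error only. Egr3 had another order, with 6.68, 3.97 and 3.56 CPM in WT and 4.07, 5.02 and 5.93 CPM in KO: its highest library was WT replicate 1. Egr1 lies at chr18:34859823-34864984 (plus strand), Egr2 at chr10:67535475-67542188 (plus) and Egr3 at chr14:70077203-70082614 (plus), all on GRCm38 by GENCODE M21.

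Among the NR4A receptors, Nr4a1 (chr15:101254269-101274795, plus strand) varied the most. WT replicates 1, 2 and 3 had 143, 114 and 170 CPM, whereas KO replicates 1, 2 and 3 had 199, 47.5 and 270 CPM. KO replicate 2 was below every WT library and the other KO libraries were above every WT library. Nr4a2 (chr2:57106830-57124003, minus strand) measured 10.5, 7.43 and 10.31 CPM in WT and 12.3, 7.17 and 11.03 CPM in KO, a narrower range in which KO replicate 1 was highest. Nr4a3 (chr4:48045153-48086447, plus strand) measured 13.5, 6.56 and 4.80 CPM in WT and 7.07, 5.35 and 13.7 CPM in KO. Here WT replicate 1 nearly equalled KO replicate 3, and Nr4a3 was the only one of the 10 genes with a spread of at least 2-fold among WT libraries.

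The feedback regulators and growth regulators repeated the pattern of Egr1. Dusp1 (chr17:26505590-26562128, minus strand) stood at 267, 336 and 342 CPM in the WT libraries, and at 368, 175 and 497 CPM in the KO libraries, in order of replicate number as throughout. Its annotated span overlaps that of Ergic1 on the other strand, which had 3575 to 4950 counts per library, and whether the counting used strand was not given in the sources used here. Ergic1 had no such pattern, with 198, 199 and 155 CPM in KO. Zfp36 (chr7:28376784-28380253, minus strand) measured 79.9, 112 and 88.6 CPM in WT and 105, 59.4 and 128 CPM in KO. Btg2 (chr1:134075170-134079120, minus strand) measured 142, 208 and 238 CPM in WT and 172, 98.3 and 373 CPM in KO. In all 3 genes KO replicate 2 was the lowest and KO replicate 3 the highest of the 6 libraries. Counting all 10 genes, KO replicate 2 was lowest in 6 (14.3% of all rows), in Nr4a2 only by a small margin, and KO replicate 3 highest in 8 (16.2% of all rows). Ier2 (chr8:84661331-84662852, minus strand) was nearly constant in WT, at 27.9, 31.8 and 29.0 CPM, and measured 24.8, 25.1 and 48.8 CPM in KO, where replicate 3 alone stood high.

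None of the 10 genes was called between KO and WT. In edgeR's quasi-likelihood test over all rows 0 members passed, at adjusted p between 0.426 and 0.949, where 0.00707% of all rows were called (1 row, RP23-57D10.3). At an unadjusted p under 0.05 there were 0 members as well, against 14.6% of all rows. DESeq2 gave an adjusted p to 8 members and called 0 of them (1.85% of the 10374 rows to which it gave one). Limma-voom called 0 members (0.00707% of all rows). KO and WT libraries overlapped for every member, while 21.8% of all rows had groups that did not overlap.

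All 10 fitted log2 fold changes were above 0, as were 52.5% of all rows, with a median of 0.12 against 0.01 over all rows. This sign depended on KO replicate 3: without that library 8 of 10 were below 0 and the median was −0.21, and without KO replicate 2 the median was 0.36. The largest value belonged to Egr2, at 0.70 ± 0.40 (SE, n = 3 each; adjusted p = 0.426 in edgeR). It was 0.34 without KO replicate 3. Nr4a1 had 0.28 ± 0.52 and Egr1 0.10 ± 0.35. The 95% intervals were wide: for Egr1 they allow a KO level of 0.612 to 1.87 times WT, for Nr4a1 0.526 to 2.79 times, for Btg2 0.541 to 2.22 times and for Dusp1 0.650 to 1.86 times. The narrowest was that of Nr4a2, at 0.756 to 1.55 times. A difference of 2-fold was thus outside the interval for Egr1, Egr3, Nr4a2, Ier2, Dusp1 and Zfp36, in either direction, and inside it for the other 4 genes in at least 1 direction.

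**Figure D2:**
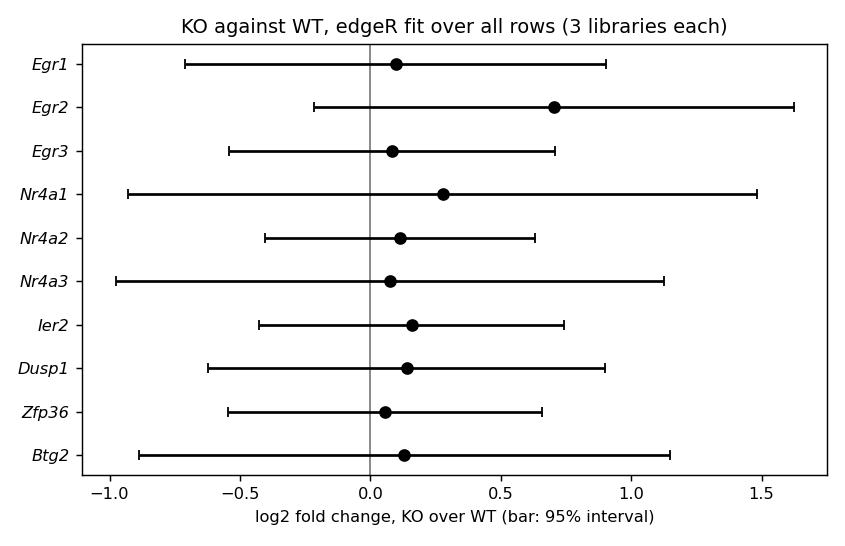
Log2 fold change of KO over WT for each gene from the edgeR fit over all rows, with its 95% interval (3 libraries per genotype). All 10 points lie right of 0 and all 10 intervals include 0; Nr4a1 has the widest and Nr4a2 the narrowest.

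The larger difference was between single KO libraries. KO replicate 3 was above KO replicate 2 for all 10 genes, where 50.2% of all rows were. The ratio was at least 2-fold for 7 genes, against 4.96% of all rows. Nr4a1 was 5.68-fold higher in KO replicate 3 than in KO replicate 2, Btg2 3.79-fold, Egr1 2.97-fold, Dusp1 2.85-fold, Nr4a3 2.56-fold, Egr2 2.39-fold and Zfp36 2.15-fold. Ier2 differed 1.94-fold, Nr4a2 1.54-fold and Egr3 1.18-fold. The median difference was 1.27 on the log2 scale, and 0.001 over all tested rows. These are ratios of 1 library to another, so they have no replicate check. The pair holds the extreme libraries of most of these same genes. Here and below, the shares of all rows beside it are therefore a description and not a test.

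**Figure D3:**
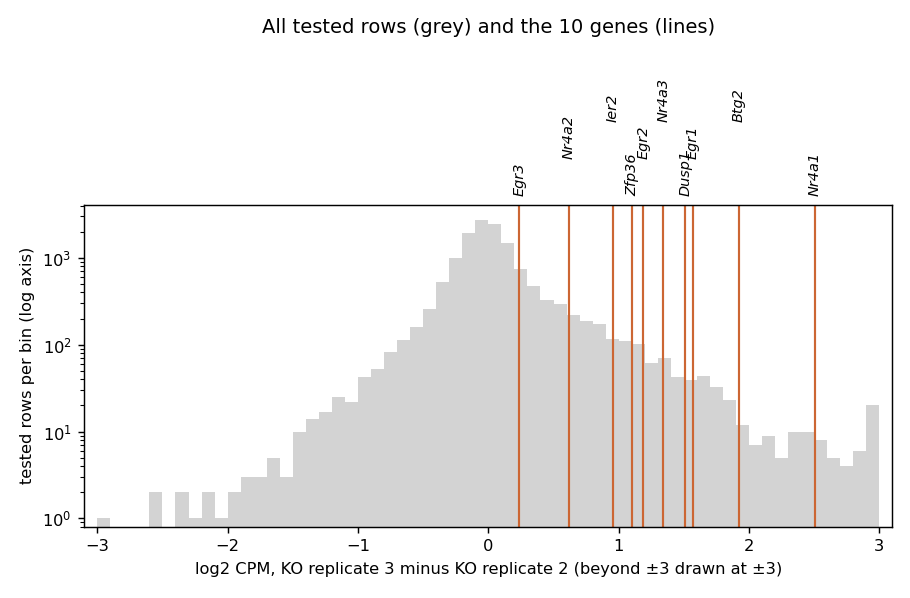
Histogram (log count axis) of the difference in log2 CPM between KO replicate 3 and KO replicate 2 for all 14145 tested rows, with lines at the 10 genes. The bulk of rows lies around 0, and the lines run from 0.24 for Egr3 to 2.505 for Nr4a1.

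Both KO libraries departed from WT, in opposite directions. KO replicate 3 exceeded every WT library in 9 of 10 genes (30.6% of all rows), the exception being Egr3, and stood 1.17 to 2.32 times the WT mean across the 10. KO replicate 2 was below every WT library in 7 genes (27.8% of all rows), and stood at 0.334 (Nr4a1) to 1.06 (Egr3) times the WT mean. It was lowest and KO replicate 3 highest of all 6 libraries in 5 genes, Egr1, Nr4a1, Dusp1, Zfp36 and Btg2, a combination found in 3.02% of all rows. KO replicate 1 lay within the WT range for 5 genes, above it for 4 and below it for Ier2. As a median over the 10 genes, KO replicates 1, 2 and 3 differed from the WT mean by 0.04, −0.56 and 0.76 on the log2 scale, and WT replicates 1, 2 and 3 by −0.07, −0.12 and 0.14. The same medians over all rows stayed between −0.004 and 0.011.

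**Figure D4:**
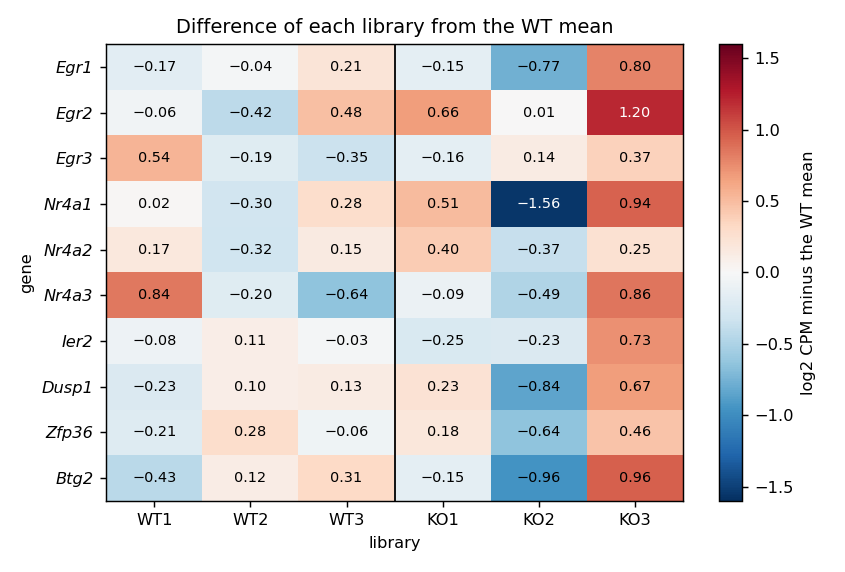
Log2 CPM of each gene in each library minus that gene's WT mean, with the value printed in each cell (red above, blue below the WT mean). The KO2 column is below 0 for 8 genes, the KO3 column is above 0 for all 10, and Egr3 and Nr4a3 differ from the rest within WT.

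The spread within a genotype summarises this. The SD of log2 CPM over KO libraries exceeded that over WT libraries in 8 of 10 genes, against 54.0% of all rows, the exceptions being Egr3 and Nr4a3. Its median over the 10 genes was 0.28 in WT and 0.64 in KO, and 0.12 and 0.13 over all rows. Nr4a1 had an SD of 1.34 over KO libraries, higher than or equal to 99.4% of tested rows, and Ier2 had one of 0.10 over WT libraries, below the WT median of all rows. The highest KO library was at least 2-fold the lowest in 7 genes (10.6% of all rows), and the highest WT library in 1 gene (8.01% of all rows). No test of unequal spread was made with 3 libraries per genotype.

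Within WT the genes did not share an order. Egr1, Dusp1 and Btg2 were lowest in WT replicate 1 and highest in WT replicate 3, with Btg2 at −0.43, 0.12 and 0.31 from its WT mean on the log2 scale. Egr3 (0.54, −0.19 and −0.35) and Nr4a3 (0.84, −0.20 and −0.64) ran the other way. Adipocyte markers, as a median over 8 genes, had 0.88, −0.12 and −0.67 in those libraries, alongside Nr4a3. Endothelial markers ran in the same order, with medians of 0.35, −0.07 and −0.24. By median, fibroblast and macrophage markers were also highest in WT replicate 1 but lowest in WT replicate 2, and smooth muscle markers were highest in WT replicate 2. By summed CPM, fibroblast markers were highest in WT replicate 3, at 8354 CPM. The part of these cell types in the members' levels was not tested.

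Relatives of the 10 genes shared the contrast between KO replicates 3 and 2 less than the members did (50.2% of all rows were higher in replicate 3). Of 7 genes listed as relatives and corepressors of EGR and NR4A, 5 were tested, 0 were called and 1 of 5 was higher in KO replicate 3 than in KO replicate 2. Nab2, an EGR corepressor that EGR1 itself induces, measured 37.7, 33.7 and 39.6 CPM in WT and 35.6, 38.3 and 34.04 CPM in KO. All libraries thus lay within a narrow range. Egr4 had 0 counts in all 6 libraries, which allows at most 0.0219 CPM over the pooled libraries. Among 17 tested relatives of Ier2, Dusp1, Zfp36 and Btg2, 0 were called, 10 were below 0 and 10 were higher in KO replicate 3 than in KO replicate 2. Of the KO libraries, replicate 2 was lowest and replicate 3 highest in 6 of these 17 and in 0 of the 5 above (16.7% of all rows). Dusp6, a phosphatase specific for ERK, had the members' pattern (17.5, 16.1 and 22.4 CPM in WT; 18.8, 13.6 and 26.9 CPM in KO). Zfp36l1, a paralogue of Zfp36, did not, with 127, 146 and 158 CPM in KO and its highest level, 266 CPM, in WT replicate 3. Another paralogue, Zfp36l2, was nearer to the members, at rank 343 of 11914 rows by closeness to their median profile (described below).

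Other early response genes shared the contrast between the KO libraries in part. Of the 8 genes of the AP-1 family listed, 0 were called between KO and WT, and 6 were higher in KO replicate 3 than in KO replicate 2, with a median difference of 0.64 on the log2 scale. Fos, the prototype immediate early gene, stood at 127, 167 and 263 CPM in the WT libraries and at 74.4, 28.1 and 367 CPM in the KO libraries. Its KO libraries differed 13.1-fold, more than any of the 10 genes, and its WT libraries ran in the same order as Egr1. Fosb (12.9 and 61.8 CPM) and Junb (23.5 and 93.4 CPM), chosen after their values were seen, also differed between KO replicates 2 and 3. Fosl2 did not, with 78.0 and 67.6 CPM. Of 44 further early response genes, 0 were called, 39 were higher in KO replicate 3 than in KO replicate 2, and the median difference was 0.35. The smallest p in this list belonged to Mafk (log2 −0.23 ± 0.07), Rgs1 (−1.02 ± 0.36) and Gem (−0.70 ± 0.28), all lower in KO. Their adjusted p was 0.277, 0.282 and 0.325 in edgeR. KO and WT did not overlap in 2 of the 44, Mafk and Rgs1 (21.8% of all rows). Klf2, a flow-responsive factor best known from endothelium, came next, with 33.1, 21.4 and 57.2 CPM in KO against 22.2 to 24.3 CPM in WT (log2 0.69 ± 0.31, adjusted p = 0.349 in edgeR).

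Transcripts of the inducing pathway differed little on balance between the KO libraries. The 26 MAP kinase genes had a median difference between KO replicates 3 and 2 of −0.02 and the 21 genes for serum response factor, its partners and CREB-related factors one of 0.0004, and 0 of either list were called between KO and WT in edgeR. DESeq2 called 1 MAP kinase gene, Mapk12, as higher and 0 of the transcription factors. Srf measured 120, 129 and 135 CPM in WT and 106, 119 and 107 CPM in KO, so all KO libraries lay below WT (log2 −0.20 ± 0.07, adjusted p = 0.293 in edgeR). Of those 21 factors 8 had genotype groups that did not overlap (21.8% of all rows); 7 were lower in KO, among them Nfatc3, Mef2a, Mef2c and Srf, and 1 was higher. Rps6ka3, an ERK-activated kinase, had the smallest p of the kinases (60.9 to 62.9 CPM in KO, 71.9 to 78.3 in WT; adjusted p = 0.239 in edgeR). Levels of kinase transcripts do not report kinase activity.

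No gene listed as acted on by the 10 products was called between genotypes. Of 10 genes listed as EGR1 targets, 0 were called and 5 were above 0. Icam1, a leukocyte adhesion molecule, had the smallest p, with 10.34, 6.67 and 11.4 CPM in WT and 13.7, 8.36 and 21.8 CPM in KO (log2 0.63 ± 0.34, adjusted p = 0.416 in edgeR). Of 9 messages listed as bound by tristetraprolin, 4 did not pass the low-count filter (Tnf, Il6, Ccl2 and Il1b), and 0 of the other 5 were called. All 5 were above 0 (52.5% of all rows), with a median log2 fold change of 0.25, and 2 were higher in KO replicate 3 than in KO replicate 2. Of 14 p53 targets beside Btg2, 0 were called, and 3 were higher in KO replicate 3 than in KO replicate 2 (50.2% of all rows). Phlda3, a p53-induced inhibitor of AKT, had the smallest p of them, with 25.8 to 30.5 CPM in WT and 34.04 to 40.01 CPM in KO (adjusted p = 0.263 in edgeR).

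Heat shock genes and several marker lists, like the members, were higher in KO replicate 3 than in KO replicate 2. Of 12 heat shock genes 11 were higher in KO replicate 3 than in KO replicate 2 (median difference 0.48). The inducible Hspa1b measured 28.9, 23.8 and 67.8 CPM in KO replicates 1, 2 and 3 and 25.8 to 29.8 CPM in WT. Macrophage markers, summed over 10 genes, stood at 112, 52.3 and 138 CPM in the KO libraries and at 93.8, 56.4 and 87.9 CPM in the WT libraries, and all 9 tested were higher in KO replicate 3 than in KO replicate 2 (median 1.32). Endothelial markers summed to 473, 433 and 751 CPM in KO and 382 to 511 CPM in WT, adipocyte markers to 209, 171 and 303 CPM in KO and 139 to 290 CPM in WT, and fibroblast markers to 7327, 6234 and 7626 CPM in KO and 6799 to 8354 CPM in WT. All tested members of these 3 lists (10, 8 and 10) were higher in KO replicate 3 than in KO replicate 2. The full order of the KO libraries was not shared by all lists: KO replicate 2 was lowest and KO replicate 3 highest of the KO libraries in 7 of the 10 members, 7 of 12 heat shock genes, 9 of 9 macrophage, 8 of 10 endothelial, 5 of 8 adipocyte and 1 of 10 fibroblast markers, against 16.7% of all rows. The fibroblast medians were 0.47, −0.34 and 0.30 from the WT mean in KO replicates 1, 2 and 3, highest in replicate 1. Smooth muscle markers went the other way, with 1 of 10 higher and sums of 44555, 58888 and 47999 CPM in KO and 53567 to 57237 CPM in WT. Lymphocyte markers summed to 0.318 to 1.54 CPM and neutrophil markers to 1.6 to 5.52 CPM. The part of other cell types in the members' differences was not tested, and in bulk RNA more cells of a type and more RNA per cell cannot be told apart. Mitochondrially encoded rows held 18.9%, 10.003% and 13.0% of counts in KO replicates 1, 2 and 3, and among the members only Nr4a2 had that order. In WT replicates 1, 2 and 3 these rows held 7.84%, 9.02% and 5.66%. Every KO library thus lay above every WT library, and this difference cannot be told apart from genotype.

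**Figure D5:**
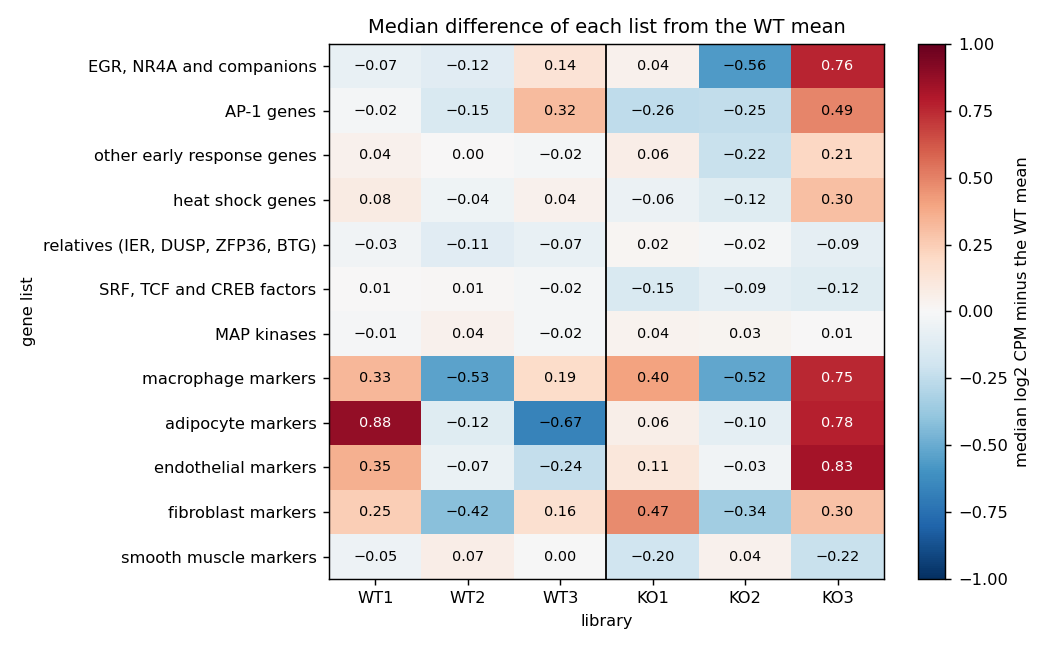
Median over each gene list of log2 CPM minus the WT mean, by library, with the value in each cell. In the KO3 column the EGR and NR4A group has 0.76, AP-1 genes 0.49, heat shock genes 0.30 and macrophage, adipocyte and endothelial markers 0.75 to 0.83, whereas transcription factors and MAP kinases upstream stay between −0.15 and 0.04 in every library.

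Rows whose profile over the 6 libraries lay closest to the median profile of the 10 genes were sought by root mean square difference of log2 CPM from the WT mean, among 11914 rows with a regular gene name whose mean reached 1 CPM in WT or in KO. The 8 closest were Inpp5d, Dusp6, Vill, Arhgap33, Hspa12b, Arap3, Eps8 and Limd2. Inpp5d, an inositol phosphatase of blood cells, measured 1.78, 1.63 and 1.86 CPM in WT and 1.75, 1.39 and 3.33 CPM in KO. Hspa12b, an endothelial member of the HSP70 family, measured 12.2, 8.94 and 11.1 CPM in WT and 11.7, 7.79 and 20.1 CPM in KO. Of the members themselves Egr1 lay closest to the median profile, at a root mean square difference of 0.132, and Nr4a3 farthest, at 0.495, compared with 0.123 for Dusp6. The members set this profile, so their own distances describe only how alike they are.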

How the data were processed

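Messenger RNA of 6 aorta libraries, 3 WT and 3 KO, was sequenced from stranded poly(A) libraries, per the labels' protocols. The authors deposited raw read counts per gene. Per the submitters' processing notes the tools named are STAR 2.6.0c, Trimmomatic 0.36 and Subread 1.6.1 with featureCounts, on GRCm38. Annotation release, strand setting and treatment of multiply mapping reads were not given in the sources used here.

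Counts were tested with edgeR 4.0.16 in R 4.3.3 (quasi-likelihood, genotype only, TMM scaling, filterByExpr with minimum count 10 and minimum total 15), two-sided, with Benjamini-Hochberg adjustment over 14145 rows and a threshold of 0.05. Each standard error is the absolute log2 fold change over the root of its F statistic. Log2 CPM used a prior count of 2. DESeq2 1.42.0 and limma-voom (limma 3.58.1) were alternatives, and each test was first checked on simulated data. Genes and lists were chosen with earlier results of these data known. Named genes are the 10 members, RP23-57D10.3, Srf and up to 4 genes of smallest p per pathway list. Also named are the 3 most abundant per marker list and the 8 rows of closest profile. Ergic1, Fosb, Junb, Egr4 and Zfp36l2 were added after their values were seen. No duplicate library was found: chi-square per gene between replicates was at least 15.03.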

Additional observations from a re-analysis of the deposited data

How the results depend on the processing

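No member was called under any of 13 other settings. A setting chosen after seeing the data left out KO replicates 2 and 3; its KO arm is 1 library, assumed to vary like the WT libraries, so its calls do not bear on stability. Over all rows 1 was called, against 192 with DESeq2, 9 without a filter, 0 with the replicate number as a block, 62 without KO replicates 2 and 3, and 0 to 3 over single left-out libraries. The design text speaks of pairs, but the labels do not say what a replicate number shares, so the main fit had no block. Same-numbered WT and KO libraries correlated at 0.107, 0.134 and −0.0556 in their deviations. With so few libraries these values cannot settle whether the numbers are pairs. With the replicate block the members' median was 0.056, and Egr1 (−0.036), Nr4a1 (−0.0069) and Btg2 (−0.038) changed sign, as they did in limma-voom (−0.044, −0.040 and −0.056). The members' median lay between −0.21 and 0.36 over single left-out libraries and was −0.002 without KO replicates 2 and 3. There Egr1 had −0.17, Egr3 −0.22, Nr4a3 −0.24, Ier2 −0.26 and Btg2 −0.19, and Egr2 0.65, Nr4a1 0.48, Nr4a2 0.39, Dusp1 0.22 and Zfp36 0.16. Lowest and highest log2 fold changes over single left-out libraries were −0.44 and 0.39 for Egr1, 0.34 and 1.01 for Egr2 (without KO replicate 3 and without WT replicate 3), −0.085 and 0.41 for Egr3, −0.21 and 0.72 for Nr4a1, −0.046 and 0.31 for Nr4a2, −0.42 and 0.62 for Nr4a3, −0.24 and 0.32 for Ier2, −0.22 and 0.46 for Dusp1, −0.19 and 0.32 for Zfp36 and −0.54 and 0.48 for Btg2; all lowest values but those of Egr3 (without WT replicate 3) and Nr4a2 (without KO replicate 1) came without KO replicate 3. The median SD of the members was 0.29 in WT and 0.64 to 0.66 in KO with another prior count or DESeq2 size factors. Egr2 stayed above 0 in each setting that tested it, and did not reach a mean count of 50.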
